A study of Mus musculus with 6 samples.

Results

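The Pgc1 coactivators and the transcription factors they work with were followed in inguinal white fat of Naa10-knockout (Naa10-KO) and wild-type (WT) mice. The set held 10 genes of 18193 measured, covered by 24 probe sets. They are the coactivators Ppargc1a, Ppargc1b and Pprc1, the nuclear receptors Esrra, Esrrg and Ppara, the mitochondrial regulators Nrf1, Gabpa and Tfam, and the deacetylase Sirt1. Every probe set that the array annotation gives to exactly 1 of these symbols was taken, without regard to its values, and each gene was read from its probe set of the highest mean.

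Pgc1 coactivators bind no DNA themselves. They dock on nuclear receptors and other transcription factors and bring in the enzymes that open chromatin. In fat, cold reaches Ppargc1a through noradrenaline, cyclic AMP and Creb, and the coactivator then drives mitochondrial genes and, in brown and beige adipocytes, Ucp1. Esrra and Esrrg, orphan receptors with no known natural hormone, and the factors Nrf1 and Gabpa carry this signal to nuclear genes of the respiratory chain, and Tfam carries it into the mitochondrion.

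RNA of 3 Naa10-KO and 3 WT samples from male mice was hybridised to 1 Affymetrix mouse genome array each. Each sample title carries its own number, as separate mice would. The labels do not say so in words, and p-values measure the spread between these samples. Both genotypes ate a high-fat diet, 60% of its calories being fat, from the age of 6 weeks and over 15 weeks, and spent their last 4 h at 4 °C, so no array shows a warm or lean state. Naa10 encodes an enzyme that acetylates the N-termini of proteins, and the labels do not give how or in which cells it was deleted. The series title names the Pgc1α protein as the acetylated target, and the arrays measured RNA only, so a change in that protein could not be seen here. The transcript of Naa10 itself was not analysed here, as the annotation ties none of the probe sets to it, which left the genotype labels unchecked.

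Values are log2 signals as the authors deposited them, each array scaled to 1 overall level. The median of all probe set values, 5.86, served as a mark for low signal, since no detection calls were used. The fat marker Adipoq lay between 15.57 and 15.81 in Naa10-KO and between 15.46 and 15.78 in WT. Both groups thus carried the adipocyte signal of the label. Of 12 adipocyte markers measured, Adipoq among them, means were higher in Naa10-KO for 4 and lower for 8, against 51.4% of all genes higher. Their median log2 difference, Naa10-KO minus WT, was -0.092, and 0 passed the test. A list of 28 skeletal muscle markers differed much more, with a mean log2 signal of 10.30 to 10.54 on the Naa10-KO arrays against 4.79, 5.39 and 7.66 on WT replicates 1 to 3. For 25 of these 28 markers the lowest Naa10-KO array exceeded the highest WT array, against 1821 of all 18193 genes. Of the 28, 2 passed the test as higher in Naa10-KO, against 0.0879% of all genes. On Naa10-KO replicate 1 the 3′ control probe set of Gapdh exceeded the 5′ set by 0.55 on the log2 scale, and on the other arrays this difference was -0.27 to 0.01. In whole tissue, fewer cells of a type and less RNA per cell cannot be told apart.

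No difference between the genotypes passed the test for any of the 10 genes, which does not show equal levels. In limma across all genes, 0 members passed an adjusted p of 0.05, against 21 of all 18193 genes (0.115%, of which 0.0879% higher and 0.0275% lower), with members' adjusted p-values between 0.501 and 0.980. At an unadjusted p under 0.05 there was 1 member, Sirt1, against 9.20% of all genes. Means were higher in Naa10-KO for 7 members and lower for 3, against 51.4% of all genes higher. The median difference, Naa10-KO minus WT, was 0.16 on the log2 scale over the members and 0.01 over all genes. The median absolute difference was 0.19 over the members, against 0.20 for the 11359 genes whose mean reached the median of all probe sets.

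**Figure D1:**
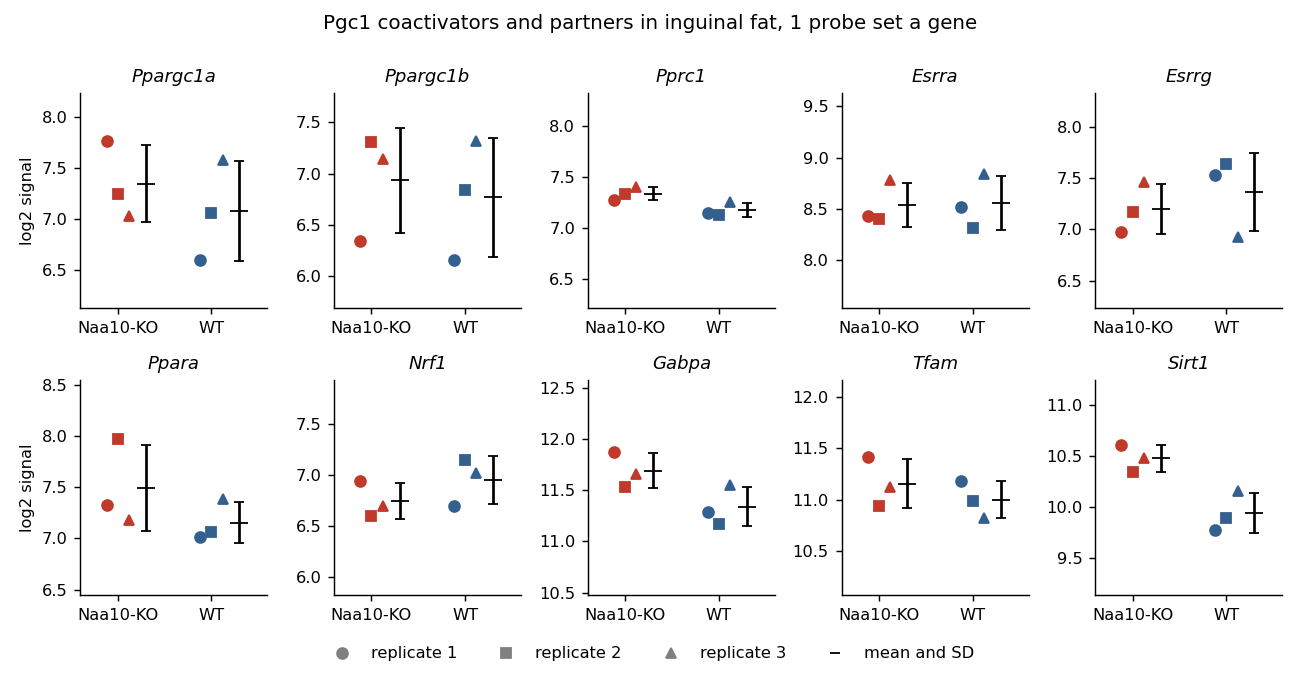
Log2 signal of each of the 10 genes on each array, Naa10-KO in red on the left and WT in blue on the right of each panel, with marker shapes for the replicate and black bars for the mean ± SD (n = 3). The axes cover the same width in log2 units, each centred on its gene. Only for Pprc1 and Sirt1 do all Naa10-KO points lie above all WT points.

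Ppargc1a, the cold-inducible coactivator of mitochondrial and thermogenic genes, was read from probe set 1434100_x_at, at 7.76, 7.24 and 7.03 on the Naa10-KO arrays and at 6.60, 7.06 and 7.57 on the WT arrays. The groups overlapped over most of their range. Its mean was 7.35 ± 0.38 in Naa10-KO and 7.08 ± 0.49 in WT (SD, n = 3 each), a log2 difference of 0.27 (SE 0.33, limma adjusted p = 0.809). The 95% interval of this difference ran from -0.56 to 1.10, so on this probe set anything from 0.679-fold to 2.14-fold of the WT level was within the error. The gene's value depended on the probe set: it was 0.47 with all 5 averaged (adjusted p = 0.729 in limma) and 0.87 with x_at and s_at probe sets left out (adjusted p = 0.553 in limma).

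The gene lies on mouse chromosome 5, and its promoter is shown because cold acts on this gene through cyclic AMP. The 250 bases before 1 of its transcription starts, chr5:51567726-51567975 on the minus strand (RefSeq, GRCm38.p6), are printed 5′ to 3′, with capitals for letters of any searched motif.
Ppargc1a: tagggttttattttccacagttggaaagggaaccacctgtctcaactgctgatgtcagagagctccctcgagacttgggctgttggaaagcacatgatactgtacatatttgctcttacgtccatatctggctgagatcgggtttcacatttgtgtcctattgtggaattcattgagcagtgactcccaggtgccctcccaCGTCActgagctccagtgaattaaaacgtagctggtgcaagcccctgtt
The full cyclic AMP response element TGACGTCA was not in the window of 300 bases around this start. Its core TGACG was present on the opposite strand, beginning 49 bases before the start. That core is common, with 20.8% of all 32851 promoter windows of the same length holding it on either strand, and 1.79% holding the full element. A match of letters is a description and shows no binding.

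Ppargc1a was read by 5 probe sets, which allowed the chosen value to be set against 4 others. All 5 means were higher in Naa10-KO, with differences between 0.27 and 0.87. They share the gene and the 6 arrays and so are not independent, and their pairwise Pearson correlations over the 6 arrays ran from 0.57 to 0.93. Probe set 1434099_at gave the highest difference, with 7.96, 7.70 and 6.95 in Naa10-KO and 6.30, 6.64 and 7.06 in WT. That is a log2 difference of 0.87 (SE 0.36, 95% interval -0.04 to 1.78, limma adjusted p = 0.681, taken over all 45037 probe sets). Its groups overlapped through Naa10-KO replicate 3 and WT replicate 3. Across those probe sets, 0 passed the test in either direction, with 3362 at an unadjusted p under 0.05.

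Probe set 1456395_at was at 6.57, 6.68 and 6.69 in Naa10-KO against 5.79, 6.55 and 6.51 in WT, a difference of 0.37. This was the only Ppargc1a probe set whose groups did not overlap, and the margin between them was narrow. Probe set 1460336_at was at 7.16, 7.21 and 6.75 in Naa10-KO and at 5.65, 6.95 and 6.86 in WT, a difference of 0.55. On 1437751_at the values were 7.31, 6.44 and 6.93 in Naa10-KO and 6.05, 6.77 and 7.03 in WT, a difference of 0.28.

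WT replicate 1 was the lowest of the 6 arrays on all 5 probe sets of Ppargc1a. Without it, the difference of the chosen probe set was 0.029 and that of 1434099_at was 0.69, and 1437751_at turned to -0.0074. The same array had the lowest skeletal muscle list mean, 4.79, and WT replicate 3, with the highest Ppargc1a of its group on 3 of the 5 probe sets, had the highest WT muscle mean, 7.66. Naa10-KO replicate 1, whose Gapdh control signal was the most shifted to the 3′ end, was the highest of all arrays on 3 of the 5. The part of muscle signal or of RNA quality in these values was not tested.

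**Figure D2:**
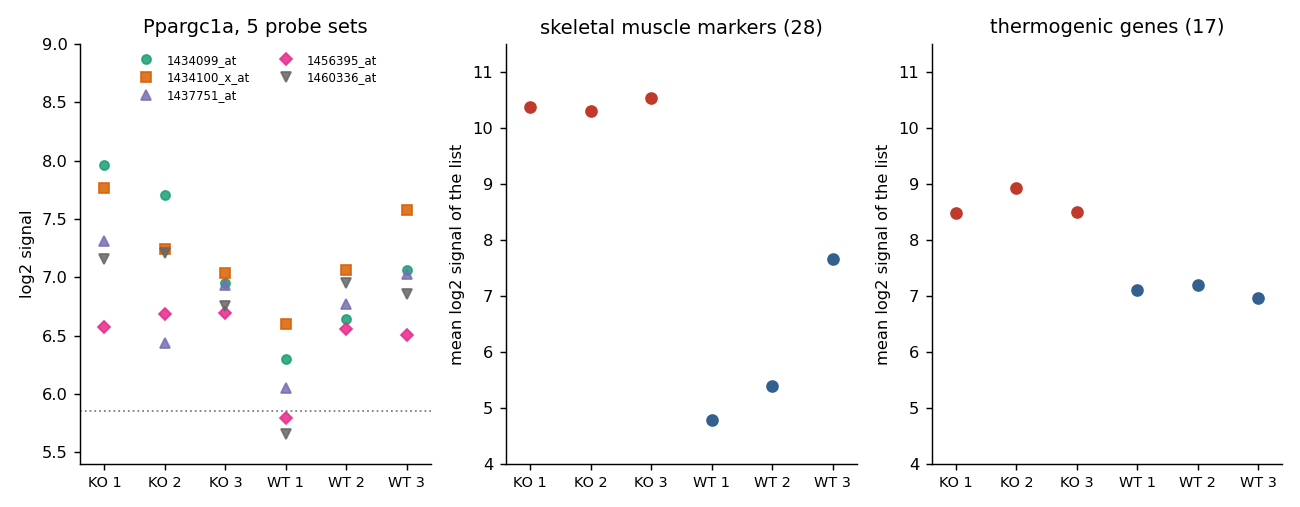
Left, log2 signal of the 5 Ppargc1a probe sets on each array (1 symbol and colour a probe set, dotted line at the median of all probe sets, 5.86). Middle and right, mean log2 signal of 28 skeletal muscle markers and 17 thermogenic genes on the same arrays (Naa10-KO red, WT blue). The marker lists separate the genotypes on every array and the Ppargc1a probe sets largely do not, with WT replicate 1 lowest on all 5.

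Ppargc1b, the sister coactivator Pgc1β, which supports basal mitochondrial content, had a single probe set. It stood at 6.34, 7.31 and 7.14 on the Naa10-KO arrays and 6.16, 6.83 and 7.31 on the WT arrays. Both groups spanned about the same range, each with its replicate 1 lowest. The log2 difference was 0.16 (SE 0.41, 95% interval -0.86 to 1.18, limma adjusted p = 0.909), the widest interval among the 10 genes, and it turned to -0.14 without WT replicate 1 and to -0.024 without Naa10-KO replicate 2.

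Pprc1, the Pgc1-related coactivator, which answers to growth signals, was the steadiest member. Its signals were 7.27, 7.33 and 7.40 in Naa10-KO and 7.15, 7.13 and 7.25 in WT. Its groups did not overlap, though the margin was small, and the difference was 0.16 (SE 0.13, 95% interval -0.17 to 0.48, limma adjusted p = 0.719). Groups that do not overlap in this direction made up 10% of all genes, and 2 of the 10 members, Pprc1 and Sirt1. In the opposite direction they made up 8.14% of genes and 0 members, and either way 18.1%. An exact permutation test of 3 against 3 arrays cannot give a 2-sided p below 0.10, which is the value both genes had.

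Esrra, the estrogen-related receptor through which Pgc1α raises respiratory genes, was at 8.43, 8.40 and 8.78 in Naa10-KO and at 8.51, 8.32 and 8.84 in WT. The values interleaved, and the difference of -0.022 was the smallest of the set (SE 0.21, 95% interval -0.55 to 0.50, limma adjusted p = 0.980). In fold terms the interval reached from 0.685-fold to 1.42-fold of WT. The sign was not stable, at 0.12 without WT replicate 3, 0.032 without Naa10-KO replicate 1 and 0.047 without Naa10-KO replicate 2. A further probe set, 1442864_at, was under the mark for low signal on all 6 arrays, so its difference of -1.21 (SE 0.74) rested on low signal.

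Esrrg, the related receptor of tissues with high oxidative demand such as heart, slow muscle and brown fat, was at 6.98, 7.17 and 7.46 in Naa10-KO and 7.54, 7.64 and 6.93 in WT. On this chosen probe set WT replicate 3, the WT array of the highest muscle signal, had the lowest Esrrg of the 6. The lowest array was Naa10-KO replicate 2 on 1421747_at (3.06) and Naa10-KO replicate 1 on 1457896_at (1.40). The difference of the chosen probe set was -0.16 (SE 0.26, 95% interval -0.81 to 0.48, limma adjusted p = 0.853), and -0.38 without WT replicate 3. The other 2 probe sets of Esrrg differed by -1.22 and -1.11 with SEs of 0.72 and 1.22, with every Naa10-KO array under the mark for low signal on both. Averaged over the 3 probe sets, Esrrg differed by -0.83 (limma adjusted p = 0.635). The first of them differed by -0.15 once low values were raised to the mark.

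Ppara, the receptor that switches on fatty acid oxidation genes, was at 7.32, 7.97 and 7.18 in Naa10-KO and at 7.02, 7.06 and 7.39 in WT. Naa10-KO replicate 2 stood above the other 5 arrays, and the remaining values overlapped. The difference was 0.34 (SE 0.26, 95% interval -0.32 to 0.998, limma adjusted p = 0.706), and 0.097 without Naa10-KO replicate 2.

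A second Ppara probe set, 1449051_at, was at 6.41, 6.68 and 6.05 in Naa10-KO and at 2.49, 6.16 and 6.52 in WT. Its difference of 1.32 (SE 1.13) rested on the single low value of WT replicate 1 and was 0.038 without that array. On the third, 1439675_at, the same array was lowest again, at 4.94 against 6.18 to 6.89 on the other 5, and the difference of 0.68 was 0.20 without it. Averaged over the 3 probe sets, Ppara differed by 0.78.

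The Ppara promoter is shown because it holds a consensus palindromic Nrf1 site, the motif of another member. It lies at chr15:85735526-85735775 on the plus strand (RefSeq, GRCm38.p6, the 250 bases before a start), with the motif beginning 31 bases before the start and a cyclic AMP core further upstream in capitals.
Ppara: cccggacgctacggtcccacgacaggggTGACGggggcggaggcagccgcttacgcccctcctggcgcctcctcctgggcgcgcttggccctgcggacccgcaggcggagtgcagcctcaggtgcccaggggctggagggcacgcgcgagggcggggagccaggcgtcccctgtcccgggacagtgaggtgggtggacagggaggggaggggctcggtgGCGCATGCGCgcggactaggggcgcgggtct
Of all promoter windows, 4.60% held this Nrf1 motif. Among the 13 windows of the 9 members with an entry, the window of Ppara was the only one that did, and the estrogen-related receptor element TNAAGGTCA was in 0 of the 13, against 1.28% of all windows. The searches covered both strands, and the cyclic AMP core lies within the full cyclic AMP element where that occurs.

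Nrf1, a factor for nuclear genes of the respiratory chain, was at 6.95, 6.61 and 6.70 in Naa10-KO and at 6.70, 7.15 and 7.03 in WT. The groups overlapped, with a difference of -0.21 (SE 0.19, 95% interval -0.68 to 0.27, limma adjusted p = 0.747). Its 4 probe sets disagreed in sign. The probe set 1424787_a_at differed by 0.32 (SE 0.23), with 6.67, 6.86 and 6.61 in Naa10-KO and 6.06, 6.66 and 6.45 in WT. On 1445914_at all Naa10-KO arrays, between 5.30 and 5.39, lay below all WT arrays, between 5.59 and 5.70, and all 6 were under the median of all probe sets. The fourth, 1420978_at, ranged from 3.08 to 6.35 over the arrays and differed by -1.38 (SE 0.86), or by -0.16 with low values raised to the median.

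Gabpa, the DNA-binding subunit of the factor also called nuclear respiratory factor 2, was at 11.88, 11.54 and 11.66 in Naa10-KO and at 11.29, 11.17 and 11.55 in WT. The groups touched only through Naa10-KO replicate 2 and WT replicate 3. Its difference was 0.35 (SE 0.18, 95% interval -0.09 to 0.80, limma adjusted p = 0.598). A second probe set, at 9.01, 8.66 and 8.74 in Naa10-KO and 8.71, 8.67 and 8.37 in WT, differed by 0.22 (SE 0.21).

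Tfam, which packages mitochondrial DNA and starts its transcription, was at 11.41, 10.94 and 11.12 in Naa10-KO and at 11.19, 10.99 and 10.82 in WT. The difference was 0.16 (SE 0.19, 95% interval -0.32 to 0.64, limma adjusted p = 0.806), or from 0.799-fold to 1.56-fold of WT. Its second probe set was at 7.80, 7.73 and 7.77 in Naa10-KO and 8.14, 8.15 and 7.57 in WT, which gave the opposite sign, -0.18 (SE 0.23). The mean of both probe sets differed by -0.013.

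The Tfam promoter is shown because it is the only one of the 13 windows with the ETS motif CCGGAAGT, the kind of site that Gabpa binds. It lies at chr10:71238045-71238294 on the minus strand (RefSeq, GRCm38.p6), with the motif, in capitals, beginning 47 bases before the start.
Tfam: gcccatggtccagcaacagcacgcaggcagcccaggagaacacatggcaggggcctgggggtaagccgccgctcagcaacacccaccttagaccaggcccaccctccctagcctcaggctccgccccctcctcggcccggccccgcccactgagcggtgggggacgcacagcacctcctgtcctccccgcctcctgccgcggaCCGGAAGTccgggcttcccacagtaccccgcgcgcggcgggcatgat
The motif was present in 3.89% of all promoter windows. Gabpa and Tfam differed by 0.35 and 0.16, and neither passed the test.

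Sirt1, the deacetylase that activates the Pgc1α protein, had the lowest p of the set. It was at 10.60, 10.34 and 10.48 in Naa10-KO and at 9.78, 9.89 and 10.16 in WT, so the groups did not overlap. Means were 10.48 ± 0.13 and 9.94 ± 0.20 (SD, n = 3 each), a log2 difference of 0.53 or 1.45-fold (SE 0.17, 95% interval 0.11 to 0.96). The limma p was 0.0230 unadjusted and 0.501 adjusted over all genes, where Sirt1 ranked 833 of 18193. Differences lay between 0.45 and 0.64 with 1 array left out, and adjusted p-values between 0.167 and 0.776 over all settings tried.

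Sirt1 signal followed the muscle signal over the arrays. Its Pearson correlation with the mean of the skeletal muscle list was 0.97 over the 6 arrays, and 0.84 for deviations from the genotype means, a description over points that share genotype and array. Some other members did so too, with 0.92 and 0.72 for Pprc1 and 0.87 and 0.66 for Gabpa. The set as a whole did not. In the same order, values were 0.58 and 0.73 for Ppargc1a, 0.41 and 0.68 for Ppargc1b and 0.20 and 0.70 for Esrra. They were 0.61 and 0.37 for Ppara, -0.37 and 0.35 for Nrf1, 0.20 and -0.55 for Tfam and -0.55 and -0.76 for Esrrg. These correlations were not set against those of all genes. The part of muscle tissue in these values was not tested.

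**Figure D3:**
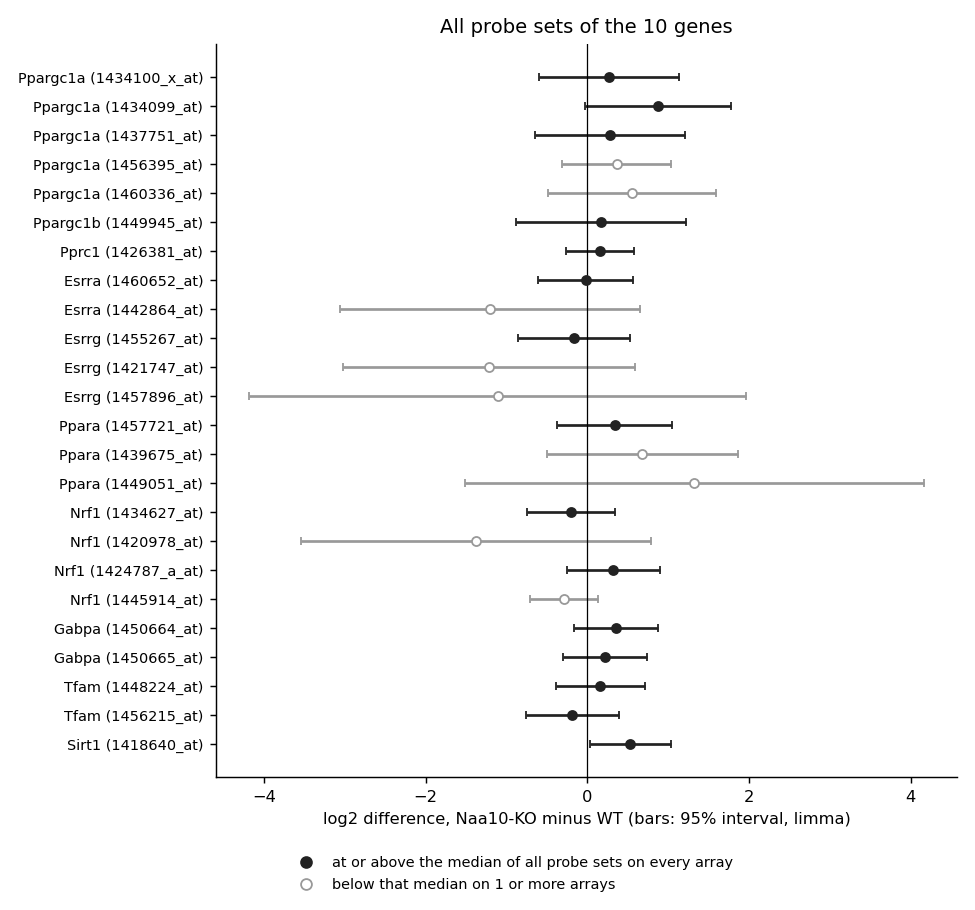
Log2 difference, Naa10-KO minus WT, of all 24 probe sets with 95% limma intervals. Black points are probe sets at or above the median of all probe sets on every array, and open grey points fell below it on 1 or more arrays. The 15 black points lie between -0.21 and 0.87. Open points spread further, from -1.38 to 1.32, several with wide intervals, though that of Nrf1 1445914_at is narrow (SE 0.17). The interval of Sirt1 is the only one that leaves out 0, before adjustment.

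Of the 24 probe sets, 15 were at or above the median of all probe sets on every array, 6 on some and 3 on none. Differences of the 15 lay between -0.21 and 0.87. Among the 7 genes with more than 1 probe set, 5 had a single sign throughout and 2, Nrf1 and Tfam, did not. Means were higher in Naa10-KO on 15 of the 24, against 49.8% of all 45037 probe sets. Groups did not overlap on 4 of the 24, with 3 higher in Naa10-KO (8.09% of all probe sets) and 1 lower (7.82%), or 15.9% of all either way. WT replicate 1 was the lowest of the 6 arrays on 11 of the 24, against 16.95% of all probe sets, a description only, since probe sets of a gene share their transcript.

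Members varied in different directions over the arrays. Over the 45 pairs of members, Pearson correlations across the 6 arrays ran from -0.86, for Ppargc1a and Esrrg, to 0.94, for Gabpa and Sirt1, with a median of 0.07. Ppargc1a and Ppargc1b correlated at 0.27. The genes most like Ppargc1a among 11358 at or above the median of all probe sets were Baz1a (0.99), Irgm1 (0.99), Gzf1 (0.99) and Arid1a (0.98), and 42 genes reached 0.95. For Ppargc1b they were Kdm8, Twist2, Gsdme and Pmm2, all at 0.98, and for Esrra they were Bcr (0.99), Nup214 (0.98), Nbdy (0.98) and Nudt16l1 (0.97). With 6 arrays and so many genes, values of this height are readily found. None of these 12 genes passed the test between genotypes, which follows largely from picking them for likeness to members that did not pass.

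Genes upstream of Ppargc1a did not pass either. Of 20 factors that act on its promoter or on their activity, 0 rose and 0 fell, with 1 at an unadjusted p under 0.05, a median difference of -0.036 and 9 means higher. Over all genes 9.20% had an unadjusted p under 0.05 and 51.4% had higher means, shares that also belong beside each list below. Mef2c, a muscle and vascular activator, was at 10.08, 10.18 and 10.26 in Naa10-KO and 9.74, 9.75 and 9.08 in WT (difference 0.65, limma adjusted p = 0.524). Creb1, the cyclic AMP effector, differed by 0.41 (SE 0.16, adjusted p = 0.542), but by -0.28 when all its probe sets were averaged. Atf2, a stress-kinase target, differed by 0.22 and Ppp3ca, a catalytic subunit of calcineurin, by -0.32.

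Among 25 cofactors and modifiers of Pgc1 proteins, 0 rose, 0 fell and 25 did not pass, with a median of 0.14. An unadjusted p under 0.05 was found for 2, against 9.20% of all genes, and 19 means were higher, against 51.4%. Prkaa2, the AMPK catalytic subunit prominent in muscle, had the smallest p, at 9.31, 9.21 and 9.34 in Naa10-KO against 8.24, 8.37 and 8.55 in WT. The groups stood well apart, with a difference of 0.90 (1.87-fold, SE 0.15, limma adjusted p = 0.187). It passed with low values filtered (adjusted p = 0.0479), with low values raised to the median (0.0281) and with trend and robust moderation (0.0297). The skeletal muscle list separates the same arrays, and its part in the Prkaa2 values was not tested. Prkab2, a regulatory AMPK subunit, differed by 0.46, Carm1, an arginine methyltransferase, by 0.36, and Fbxw7, a ubiquitin ligase subunit, by -0.39. Values for other partners were 0.21 for Nrip1, a corepressor, 0.25 for Lpin1, which coactivates Ppara with Pgc1α, and 0.48 for Perm1, a muscle regulator downstream of Pgc1 and the estrogen-related receptors.

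Of 14 other nuclear receptors that Pgc1 binds, 0 passed in either direction, with 0 at an unadjusted p under 0.05, a median of 0.084 and 9 means higher. Pparg, the master regulator of adipocytes, was at 11.72, 11.62 and 11.49 in Naa10-KO and 11.27, 11.42 and 11.66 in WT (difference 0.16, SE 0.17, limma adjusted p = 0.767). Its groups overlapped, as did those of the retinoid receptors Rxrb (0.16) and Rxrg (0.36). For the glucocorticoid receptor Nr3c1 the difference was 0.12, and -0.19 with all its probe sets averaged.

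Genes of mitochondrial DNA transcription and replication, which work on the same DNA as Tfam, had 16 of 19 means higher, with a median of 0.24 against 0.01 over all genes. Over all genes 51.4% of means were higher. None of the 19 passed, so 0 rose and 0 fell, and 3 had an unadjusted p under 0.05, against 9.20% of all genes. The smallest p was that of Mterf3, a regulator of mitochondrial transcription, at 11.999, 11.79 and 11.95 in Naa10-KO and 11.48, 11.46 and 11.37 in WT. That difference of 0.48 (SE 0.14, limma adjusted p = 0.475) became -0.38 with all its probe sets averaged. Polg2, the accessory subunit of the mitochondrial polymerase, differed by 0.66, Mterf1a by 0.52 and Lonp1, a matrix protease, by -0.57. Tfb1m and Tfb2m, mitochondrial methyltransferase relatives of which Tfb2m opens the promoter, both differed by 0.30.

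Respiratory chain and citrate cycle genes, the main targets of the Pgc1 and estrogen-related receptor pair, did not pass the test. Of 36 measured, 0 rose, 0 fell, 1 had an unadjusted p under 0.05, 25 means were higher, and the median difference was 0.062. Differences ran from -0.30 to 0.50. Atp5g1, a ring subunit of ATP synthase, was at 10.57, 10.69 and 10.85 in Naa10-KO and 10.35, 10.14 and 10.14 in WT (difference 0.50, SE 0.15, limma adjusted p = 0.490). Ndufb5 of complex I differed by 0.30, Atp5c1 of ATP synthase by 0.23 and Uqcrc1 of complex III by -0.30. Cycs, the cytochrome c gene and a classical Nrf1 target, differed by -0.023 (SE 0.17).

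Among 27 Ppara targets of fatty acid use, 1 rose, 0 fell and 26 did not pass, with 16 means higher and a median of 0.082. The gene that rose was Fabp3, a fatty acid carrier of muscle, heart and brown fat, at 11.31, 11.46 and 10.85 in Naa10-KO against 6.39, 6.29 and 5.80 in WT (limma adjusted p = 0.0270). With 1 array left out it passed only when that array was WT replicate 3, and adjusted p-values lay between 0.0324 and 0.151. Its difference of 5.05 was 2.45 with all its probe sets averaged (adjusted p = 0.0735), and the replicate block also ended the call (adjusted p = 0.271). The skeletal muscle list given above separates the same arrays, and its part in the Fabp3 values was not tested. Ehhadh, a peroxisomal oxidation enzyme, was at 10.77, 10.66 and 10.64 in Naa10-KO and 9.38, 9.61 and 9.92 in WT. It differed by 1.06 (SE 0.18, adjusted p = 0.216) and passed with low values raised (0.0465) and with trend and robust moderation (0.00776). Acot1, an acyl-CoA thioesterase, differed by 1.40 and Plin5, a lipid droplet protein of oxidative tissues, by 0.74, without passing. Pdk4, the pyruvate dehydrogenase kinase often read as a Ppara and Pgc1 target, differed by 0.088 (SE 0.23), and Cpt1b was not analysed here.

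Differences were larger in several beige and brown thermogenic genes, a list that holds outputs of Ppargc1a such as Ucp1 beside fate regulators and identity markers. Of 17 measured, 0 rose and 0 fell in limma over all genes, and the median difference was 0.56. An unadjusted p under 0.05 was found for 10, against 9.20% of all genes. Groups did not overlap, with Naa10-KO higher, for 11, against 1821 of all 18193 genes. Means were higher for 13, against 51.4% of all genes, and lower for 4. The mean of this list correlated at 0.88 with that of the muscle list over the 6 arrays and at -0.38 for deviations from the genotype means, and the part of muscle in it was not tested. Ucp1, the uncoupling protein, was at 9.56, 10.75 and 9.55 in Naa10-KO and 4.75, 4.01 and 2.60 in WT (adjusted p = 0.0713). All its WT values lay under the median of all probe sets. Cox7a1, a cytochrome oxidase subunit also strong in muscle, was at 10.82, 11.07 and 11.06 in Naa10-KO against 8.93, 9.27 and 8.76 in WT (adjusted p = 0.0582). The fatty acid transporter Slc27a2 (5.50), the coenzyme A enzyme Pank1 (1.81) and the lipid droplet protein Cidea (2.10) did not pass either. The 4 genes with lower means, chosen for mention after their values were seen, were the deiodinase Dio2 (-0.97), Otop1 (-0.31), the beige marker Tmem26 (-0.21) and the fate regulator Prdm16 (-0.12), all with overlapping groups. With trend and robust moderation 7 of the 17 rose: Ucp1, Cidea, Cox7a1, Cox8b, Slc27a2, Pank1 and Ckmt2, the last with a difference of 6.02. Ckmt2 was at 11.09, 10.16 and 10.78 in Naa10-KO and at 4.998, 2.87 and 6.10 in WT. Its highest WT value was on replicate 3, the WT array of the highest muscle mean. Ucp1, Cidea, Cox7a1, Cox8b, Slc27a2 and Pank1 had their lowest WT value on that array. The part of muscle signal in these 7 genes was not tested. Under trend and robust moderation 0 of the 10 members passed, against 0.561% of genes higher and 0.192% lower. Members also gave 0 calls with low values filtered, against 0.636% higher and 0.102% lower, and with low values raised to the median, against 0.784% and 0.0980%.

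**Figure D4:**
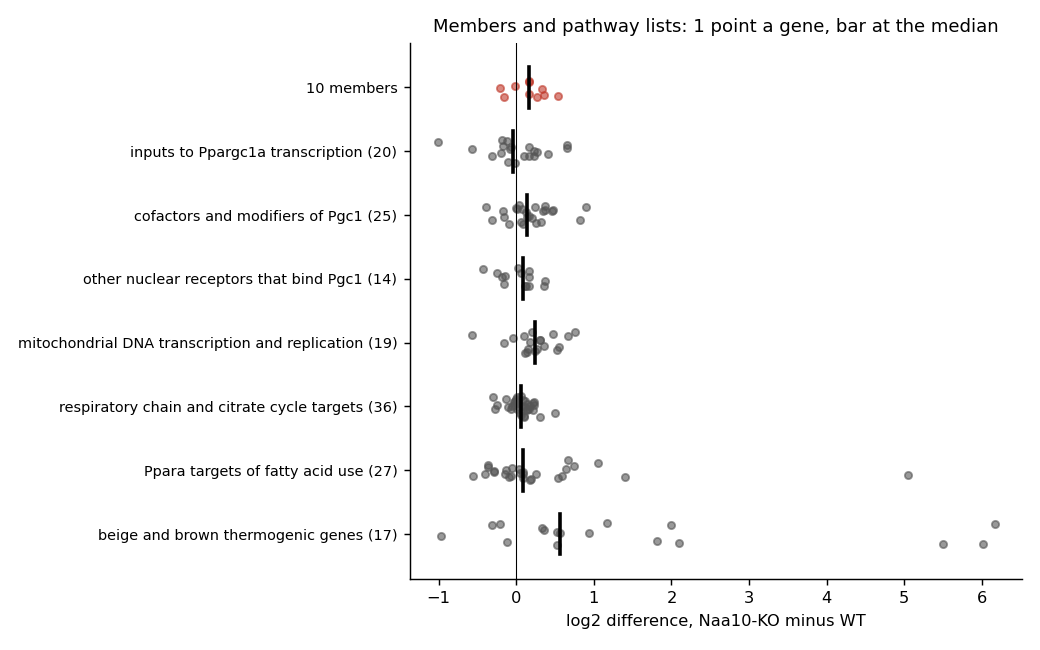
Log2 difference, Naa10-KO minus WT, of each of the 10 genes (red) and of each gene of 7 pathway lists (grey, number measured in brackets), with a black bar at the median. The members lie between -0.21 and 0.53, and the widest spread is in the thermogenic genes, whose highest value is that of Ucp1 at 6.17.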

How the data were processed

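RNA of inguinal fat was measured on 6 arrays, 3 Naa10-KO and 3 WT. The authors deposited log2 signals for 45101 probe sets, 64 of them controls. Their software is not given in sources used here. On the linear scale the mean after trimming 2% at each end was 500.0 on every array. Values were used without further normalization or filter, and the number of arrays limits their precision.

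Probe sets were named through GEO's platform annotation, in which 34945 had 1 gene. Genotypes were compared with limma 3.58.1 (R 4.3.3; lmFit, eBayes, genotype only, 2-sided), once over 18193 genes and once over 45037 probe sets, with Benjamini-Hochberg adjustment calling adjusted p-values under 0.05. Nothing in the labels says that the replicate numbers pair mice, and correlations of same-numbered arrays' deviations from the group means were 0.00, 0.00 and -0.02.

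Members and lists were chosen with earlier results of these data known. Text names all members, the 4 genes of smallest p in each list, 12 genes fixed by name and the 4 genes most like each of Ppargc1a, Ppargc1b and Esrra. Some further thermogenic genes were named after their values were seen. In 20 simulations of 18193 genes, 12.3% of genes shifted by 1 log2 unit and 49.4% of those shifted by 2 were recovered. The shifted genes were drawn from all genes, those of low signal included, so these shares do not give the recovery for the members. Alternatives were quantile normalization, median centring, a low-value filter or floor, trend and robust moderation, a replicate block, averaged probe sets, omission of x_at and s_at probe sets, and each array left out.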

Additional observations from a re-analysis of the deposited data

How the results depend on the processing

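No member passed under any setting, in 140 gene-level values (adjusted p 0.167 to 0.991) and 280 probe-set values (0.222 to 0.997). Signs turned with 1 array left out for Ppargc1b (range -0.14 to 0.46, with -0.14 without WT replicate 1 and -0.024 without Naa10-KO replicate 2), Esrra (-0.15 to 0.12, with 0.12 without WT replicate 3 and 0.032 and 0.047 without Naa10-KO replicates 1 and 2) and Ppargc1a probe set 1437751_at (-0.0074 to 0.50). They turned likewise for Cycs (-0.12 to 0.051), Pdk4 (-0.067 to 0.24) and Perm1 (-0.015 to 0.84). With probe sets averaged they turned for Tfam (-0.013), Creb1 (-0.28), Mterf3 (-0.38) and Nr3c1 (-0.19). The cause of these turns was not tested.

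Over all genes, 16 higher and 5 lower calls became 75 and 12 with low values filtered, 104 and 13 with them raised to the median, 102 and 35 with trend and robust moderation, 14 and 3 after quantile normalization, and 0 and 0 with probe sets averaged or with the replicate block. With 1 array left out they ranged from 0 to 29 and from 0 to 1. Over all probe sets, 0 and 0 became 70 and 10 filtered, 122 and 24 raised, and 130 and 55 with trend and robust moderation, and 0 to 1 higher with 1 array left out. Cofactor calls were 1 (Prkaa2) under those 3 settings. Higher Ppara target calls were 2 raised and with trend and robust moderation, 0 with averaged probe sets or the block, and 0 to 1 with 1 array left out. Thermogenic calls were 1 after median centring, 5 filtered, 4 raised and 7 with trend and robust moderation, and the thermogenic median was 0.94 filtered. The filter kept a gene when its higher genotype mean reached the median of all probe sets, and the floor setting when any array exceeded it. Ucp1, Slc27a2 and Ckmt2, with WT means of 3.79, 2.13 and 4.66, were kept through Naa10-KO only. Filtered and raised calls, and the filtered median, are therefore tied to the difference tested and add no support. The replicate block called no member, with adjusted p-values between 0.689 and 0.974, and not every array correlated best with its own number.

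Precision limits these results: intervals of the 10 genes reached from -0.86 to 1.18, and low signal, without detection calls, put 9 of 24 probe sets under the median on 1 or more arrays.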
